A study of Homo sapiens with 12 samples.

Results

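The pocket proteins and the MuvB core are the cell's means of turning cell cycle genes off and on, and 10 of their genes were followed through the RNA-seq counts of cells that expressed E2F1 or its arginine mutants. They were the pocket protein genes RB1, RBL1 and RBL2, the MuvB subunit genes LIN9, LIN37, LIN52, LIN54 and RBBP4, and the transcription factor genes MYBL2 and FOXM1. Members were taken by gene symbol, and 10 of 10 were found among the 25369 symbols of the count files and passed the filter on low counts, as did 16625 genes in all. LIN54 was the member with the largest change, with 2.66-fold more transcript in the WT E2F1 line than in the empty vector line, and RB1 rose by 1.79-fold in the same line, while RBL1 and RBL2 did not pass the test in any line.

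U2OS is a human osteosarcoma line, and every sample came from U2OS Tet-On cells carrying a stable construct under a doxycycline-responsive promoter. The pTRE cells held the empty vector, the WT cells HA-tagged wild-type E2F1, the R109K cells HA-tagged E2F1 with a lysine in place of the arginine that its name gives, and the KK cells HA-tagged E2F1 with lysines in place of the neighbouring pair of arginines (R111/113K). Cells of all 4 lines, the pTRE control included, received doxycycline at 1 µg/ml for 24 hours, were grown with G418 and hygromycin B, and gave 3 biological replicates per line. The endogenous E2F1 gene was present in all of them. Each group is 1 stable line, so a change caused by the construct and a difference between separately derived lines cannot be told apart in these samples.

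RB1 binds the activation domain of activator E2Fs such as E2F1 and holds their target genes silent until cyclin-dependent kinases phosphorylate it. Its relatives RBL1 and RBL2 bind the repressor E2Fs E2F4 and E2F5 and, through LIN52, the MuvB core, which together form the DREAM complex that represses cell cycle genes in quiescent cells. When cells proliferate, the same core releases the pocket protein, takes up MYBL2 and later FOXM1, and activates the genes of G2 and mitosis. LIN54 is the subunit that contacts DNA at the cell cycle genes homology region (CHR), LIN9 and LIN52 form the surface for MYBL2, LIN37 is needed for repression, and RBBP4 is a histone-binding protein shared with other chromatin complexes.

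Expression is given as CPM, the counts of a gene relative to all reads on genes of its sample after scaling by the TMM factors of edgeR. The libraries held between 11500537 and 31040903 reads on genes. One of them, WT replicate 2, stood apart, with 31.2% of its reads on genes and 58.7% assigned to no feature, against 59.05 to 65.7% and 23.6 to 29.6% in the other 11 samples. Whether the unassigned reads lie in introns or between genes is not given by the counts. Results that rest on WT replicate 2 are given without it too. Across the whole transcriptome, the lines were compared with the quasi-likelihood test of edgeR over 16625 genes, with Benjamini-Hochberg adjustment of the p-values. A gene was called when its adjusted p was under 0.01 and its change over 2-fold, the thresholds of the study's methods, and it is said to have risen or fallen when the adjusted p alone was under 0.01. The 3 comparisons with pTRE share the same 3 pTRE samples, so that a high or low pTRE replicate moves all of them together.

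E2F1 itself, which sums the endogenous transcript and the construct, had 89.2, 82.9 and 101 CPM in pTRE replicates 1, 2 and 3, and 2315, 1650 and 1469 CPM in WT. It had 1283, 1260 and 932 CPM in R109K and 1360, 1478 and 1112 CPM in KK. Its log2 fold changes against pTRE were 4.31 in WT, 3.67 in R109K and 3.85 in KK. The label of a bone tumor line was checked against 8 osteoblast lineage markers, of which 6 passed the filter. The 8 together summed to between 4712 and 5911 CPM in pTRE, between 1051 and 1417 CPM in WT, between 1609 and 1763 CPM in R109K and between 1287 and 1527 CPM in KK, with COL1A1 showing the largest fall in WT. The labels also name the cells epithelial, and 5 of 6 epithelial markers passed, with a sum of 745 to 919 CPM in pTRE and of 365 to 659 CPM in the E2F1 lines, and KRT19 at 0 in every sample of pTRE and KK. The 6 blood and vessel markers summed to between 6.46 and 19.4 CPM in every sample. The part of these differences between the lines in the results was not tested, and in bulk RNA fewer cells of a kind and less RNA per cell cannot be told apart.

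Promoters were read from the GRCh37 sequence around the start of the canonical GENCODE transcript for 9 of the 10 genes, since E2F sites and the CHR are the elements through which these proteins act. The E2F consensus was searched as TTTCCCGC, TTTGGCGC, TTTCGCGC and TTTGCCGC and the CHR as TTTGAA and TTCGAA, on both strands. The E2F core drops the first T of each consensus, so that it overlaps with every consensus match. From 250 bases before to 50 after the start, the E2F consensus was found in 3 of the 9 genes read against 4.28% of 17760 coding promoters, and the CHR in 3 of 9 against 12.6%. With the core alone the E2F count was 4 of 9 against 17.1%. LIN54, the member that changed most, is shown over the whole window (chr4:83931927-83932226, minus strand, 5′ to 3′), with its only match, a CHR that begins 100 bases before the start, in capitals.

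LIN54: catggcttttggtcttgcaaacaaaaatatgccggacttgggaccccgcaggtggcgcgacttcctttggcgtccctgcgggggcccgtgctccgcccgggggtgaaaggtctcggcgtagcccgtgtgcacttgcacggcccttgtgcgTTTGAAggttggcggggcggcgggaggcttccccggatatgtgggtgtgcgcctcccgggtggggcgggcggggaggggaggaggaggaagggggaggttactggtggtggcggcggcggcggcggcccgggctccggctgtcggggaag

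The genes with E2F matches are shown over 60 bases each, the consensus or core in capitals, because RB1, which rose in WT, and LIN52, which fell in KK, hold the same 8 letters at the same distance from the start. In both, TTTCCCGC begins 25 bases before the start (chr13:48877842-48877901, plus strand, and chr14:74551614-74551673, plus strand). RBL1 holds a pair of consensus matches at 26 and 16 bases before the start (chr20:35724386-35724445, minus strand). RBBP4 has 2 overlapping cores on opposite strands (chr1:33116749-33116808, plus strand).

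RB1: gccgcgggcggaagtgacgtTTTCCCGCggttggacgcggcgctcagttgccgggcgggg

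LIN52: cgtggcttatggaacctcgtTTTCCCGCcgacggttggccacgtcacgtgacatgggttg

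RBL1: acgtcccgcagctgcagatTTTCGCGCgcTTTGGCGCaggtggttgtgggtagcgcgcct

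RBBP4: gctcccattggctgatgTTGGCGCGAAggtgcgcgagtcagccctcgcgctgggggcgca

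RBL2 had a CHR that begins at position 25, the start being position 1, and LIN9 a pair of them at 60 and 3 bases before it. LIN37 and MYBL2 had no match to the strings searched in this window. From 900 bases before to 100 after the start, the E2F consensus was present in 4 of the 9 genes against 8.92% of promoters, the core in 5 against 31.9% and the CHR in 4 against 46.3%. LIN54 had 0 E2F matches in the wider window too, and MYBL2 had 0 matches of either kind. A match is only a run of letters, and binding was not measured here. Sites spelled otherwise than the strings searched were not looked for, so a gene with no match may still hold an E2F site or a CHR.

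**Figure D1:**
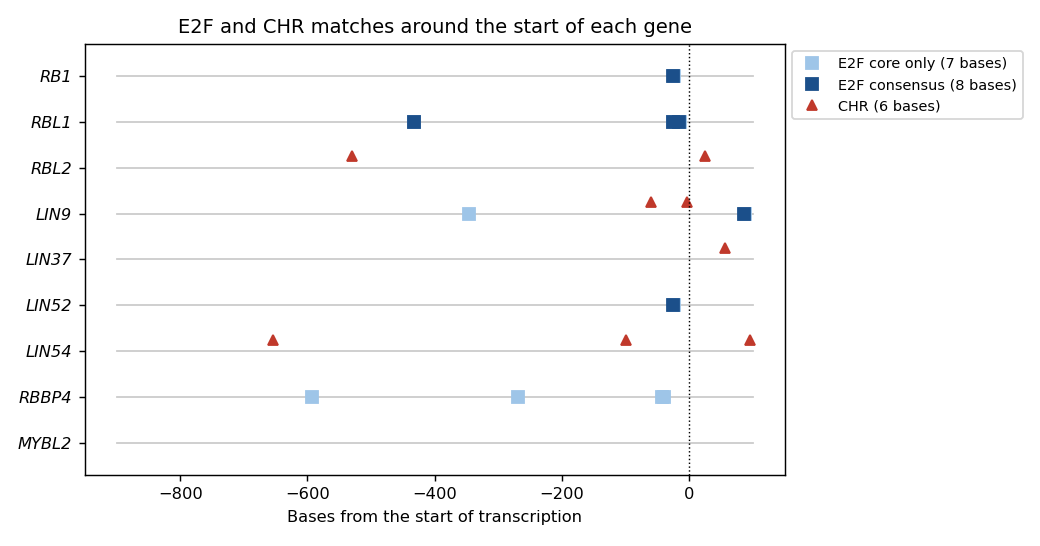
Matches to the E2F consensus (dark squares), to the E2F core alone (light squares) and to the CHR (triangles) from 900 bases before to 100 bases after the start of each of the 9 genes; the x axis is the distance from the start in bases. RB1, RBL1 and LIN52 carry consensus matches just before the start, LIN54 carries only CHR matches, and MYBL2 carries no match to the strings searched.

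Among the members, 1 of 10 was called higher in WT (LIN54), 0 in R109K and 1 in KK (LIN54), and 0 were called lower. Of all genes tested, 7.89% were called higher and 3.93% lower in WT, 4.64% and 2.56% in R109K, and 7.01% and 3.90% in KK. At an adjusted p under 0.01 with no limit on the fold, 2 members rose in WT (RB1 and LIN54), 2 in R109K (LIN54 and FOXM1) and 1 in KK (LIN54), and 1 fell in KK (LIN52). The corresponding shares of all genes were 14.8% higher and 11.4% lower in WT, 10.0% and 7.23% in R109K, and 13.8% and 10.7% in KK. The members' counts were therefore close to what the whole table gives, and the individual genes are described below for their own values.

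**Figure D2:**
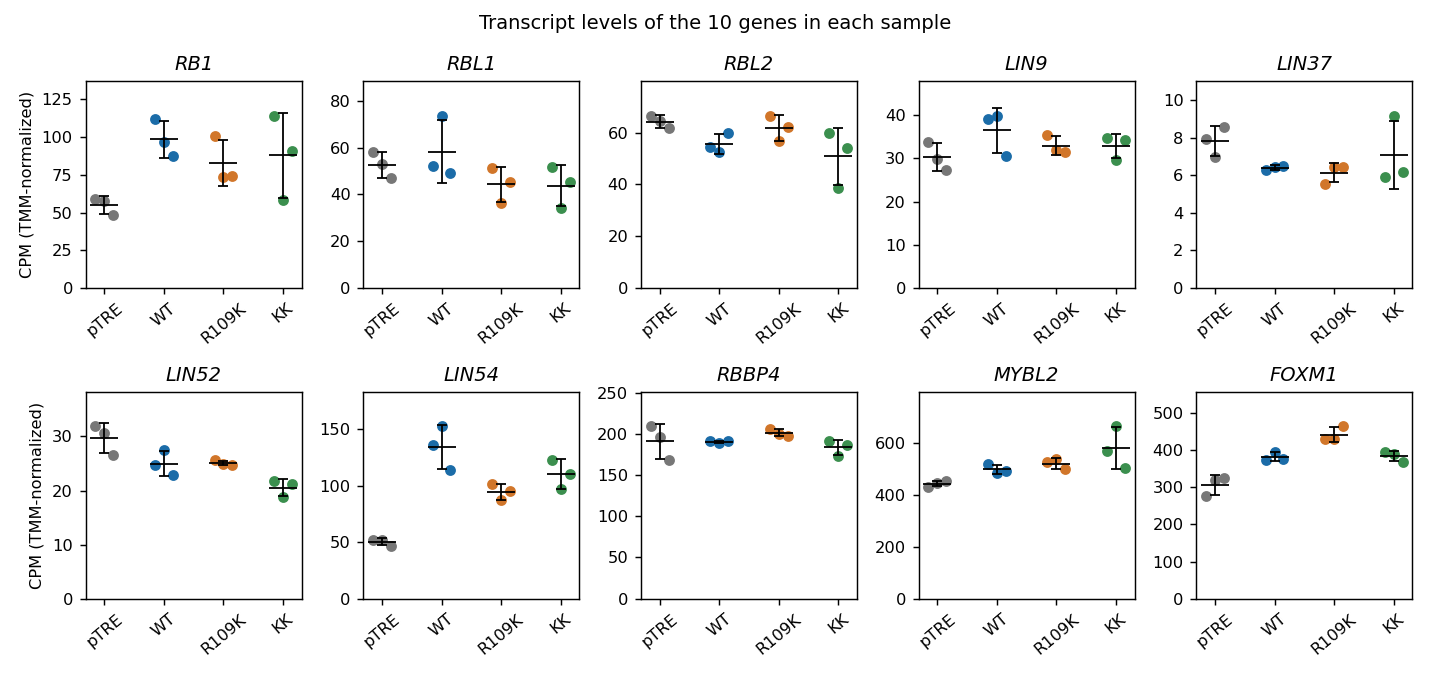
CPM of the 10 genes in each of the 12 samples (points, replicates 1 to 3 from left to right), with the mean and SD of each line as a black bar; each y axis starts at 0. LIN54 in the 9 E2F1 samples sits between 87.5 and 153 CPM, above the 46.9 to 52.3 CPM of pTRE, whereas RBBP4 lies between 168 and 209 CPM in all 12 samples.

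RB1 (chr13:48877880-49173572, plus strand, 27 exons in the canonical transcript), the founding pocket protein gene, had 59.3, 57.9 and 48.4 CPM in pTRE. It had 112, 96.4 and 87.3 CPM in WT, 100.4, 73.3 and 74.4 in R109K, and 114, 58.3 and 91.0 in KK. All WT and R109K samples lay above all pTRE samples, while KK replicate 2 fell within the pTRE range. RB1 rose in WT, by 0.84 on the log2 scale (SE 0.20, edgeR adjusted p = 0.00397). Its differences in R109K and KK, 0.58 (adjusted p = 0.0399) and 0.67 (adjusted p = 0.0159), did not pass in the same edgeR test. The rise in WT was lost when any 1 of the 3 pTRE replicates or WT replicate 1 was left out, with edgeR adjusted p of 0.0127, 0.0133, 0.0265 and 0.0194, and remained at 0.00521 without WT replicate 2. In R109K, RB1 passed when only the 6 samples compared were fitted (edgeR adjusted p = 0.00117). In KK it passed in 5 of 12 alternatives, among them DESeq2 (0.00545) and the fit without KK replicate 2, where the difference was 0.89 (adjusted p = 0.000658).

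RBL1 (chr20:35624752-35724400, minus strand), which binds E2F4 in G1 and S phase and is itself a classical E2F target gene, had 58.2, 52.9 and 47.0 CPM in pTRE and 52.0, 73.7 and 49.1 in WT. R109K gave 51.1, 36.4 and 45.5 CPM and KK gave 51.8, 34.2 and 45.3. The lines overlapped with pTRE in each comparison. Its log2 differences were 0.14 in WT, -0.25 in R109K and -0.27 in KK, with 95% intervals of -0.24 to 0.52, -0.63 to 0.13 and -0.65 to 0.12, and the edgeR adjusted p ran from 0.274 to 0.558. The sign in WT rests on WT replicate 2, and without that sample the difference was -0.06.

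RBL2 (chr16:53467889-53525560, plus strand), the pocket protein that prevails in quiescent cells, had 66.5, 64.3 and 61.7 CPM in pTRE. It had 54.4, 52.4 and 60.02 CPM in WT, 66.6, 56.7 and 62.3 in R109K, and 59.9, 38.6 and 54.0 in KK. The WT and KK samples lay below the pTRE samples, with KK replicate 2 lowest. None of the log2 differences passed the edgeR test, at -0.21 in WT (adjusted p = 0.253), -0.05 in R109K (0.826) and -0.33 in KK (0.074). The 95% interval of the difference in KK ran from -0.63 to -0.04.

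The balance between the pocket protein transcripts moved toward RB1, as read from the ratio of CPM within each sample, which cancels the depth of the library. RB1 to RBL2 lay between -0.35 and -0.15 on the log2 scale in pTRE, between 0.54 and 1.04 in WT, between 0.25 and 0.59 in R109K and between 0.59 and 0.93 in KK. RB1 thus stood below RBL2 in CPM in all pTRE samples and above it in all 9 E2F1 samples, and the mean ratio was 2.06, 1.55 and 1.97 times that of pTRE. RB1 to RBL1 lay between 0.03 and 0.13 in pTRE and between 0.39 and 1.14 in the E2F1 lines, with 0 samples overlapping and mean ratios of 1.63, 1.78 and 1.87 times pTRE. Here KK replicate 2 lay with the other KK samples. RBL1 to RBL2 overlapped between pTRE and every line. These ratios were formed after the levels were seen and carry no test.

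LIN54 (chr4:83831126-83934079, minus strand), the DNA-binding subunit of MuvB, had 52.3, 52.1 and 46.9 CPM in pTRE. It had 136, 153 and 114 CPM in WT, 101, 87.5 and 95.2 in R109K, and 123, 97.2 and 111 in KK. All 9 samples with an E2F1 construct lay above all 3 pTRE samples. LIN54 rose by 1.41 on the log2 scale in WT (SE 0.13, edgeR adjusted p = 9.87e-07, 2.66-fold) and by 1.13 in KK (SE 0.13, adjusted p = 7.99e-06, 2.19-fold). It rose by 0.91 in R109K (SE 0.13, edgeR adjusted p = 9.73e-05), which at 1.88-fold was not over 2-fold. The adjusted p stayed under 0.01 in all 12 alternatives of each of these comparisons, and without WT replicate 2 the change in WT was 1.31. A test of the fold change against 2-fold itself (glmTreat) called LIN54 in neither WT nor KK.

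The other MuvB subunits did not follow LIN54. LIN9 (chr1:226418850-226497570, minus strand) had 33.7, 29.9 and 27.2 CPM in pTRE, 39.0, 39.9 and 30.5 in WT, 35.5, 32.0 and 31.4 in R109K, and 34.7, 29.7 and 34.3 in KK. All 3 lines overlapped with pTRE, and the log2 differences of 0.27, 0.12 and 0.12 did not pass (edgeR adjusted p of 0.114, 0.528 and 0.512). LIN37 (chr19:36239262-36245420, plus strand), the least abundant member in CPM, had 7.93, 6.99 and 8.56 CPM in pTRE, 6.27, 6.42 and 6.50 in WT, 5.54, 6.43 and 6.43 in R109K, and 5.92, 9.17 and 6.16 in KK. WT and R109K lay below pTRE, but the log2 differences of -0.29, -0.35 and -0.15 did not pass (edgeR adjusted p of 0.198, 0.148 and 0.539).

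LIN52 (chr14:74551659-74668196, plus strand), whose phosphorylation by DYRK1A joins the core to RBL1 or RBL2, was the 1 member that fell. It had 31.9, 30.7 and 26.6 CPM in pTRE, 24.6, 27.5 and 22.9 in WT, 25.6, 24.9 and 24.8 in R109K, and 21.7, 18.8 and 21.2 in KK. The KK and R109K samples lay below all pTRE samples, and WT replicate 2 overlapped with pTRE. In KK the log2 difference was -0.53 (SE 0.12, edgeR adjusted p = 0.00217), and in WT and R109K it was -0.25 (adjusted p = 0.0942) and -0.24 (adjusted p = 0.133). Without WT replicate 2 the difference in WT was -0.32 (edgeR adjusted p = 0.0494), which did not pass either. The fall in KK was lost without pTRE replicate 1 or pTRE replicate 2, each with an edgeR adjusted p of 0.0112.

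RBBP4 (chr1:33116743-33151812, plus strand) was the steadiest member. It had 209, 196 and 168 CPM in pTRE, 191, 189 and 191 in WT, 206, 200.05 and 198 in R109K, and 191, 173 and 187 in KK. The log2 differences were -0.0047 in WT, 0.08 in R109K and -0.06 in KK, with 95% intervals of -0.23 to 0.23, -0.15 to 0.31 and -0.29 to 0.17, so that the 3 intervals together reached no further than -0.29 and 0.31.

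The balance of the MuvB transcripts was read from the log2 ratio of LIN54 to the mean log2 CPM of LIN9, LIN37, LIN52 and RBBP4 in the same sample. It is not scaled by transcript length, so only its change between lines is read. That ratio lay between 0.51 and 0.63 in pTRE, between 1.90 and 2.16 in WT, between 1.45 and 1.66 in R109K and between 1.66 and 2.01 in KK. The mean ratio was thus 2.77, 2.00 and 2.43 times that of pTRE in WT, R109K and KK. R109K did not overlap with WT, while KK overlapped with both. This ratio was built around the member that changed most and carries no test.

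**Figure D3:**
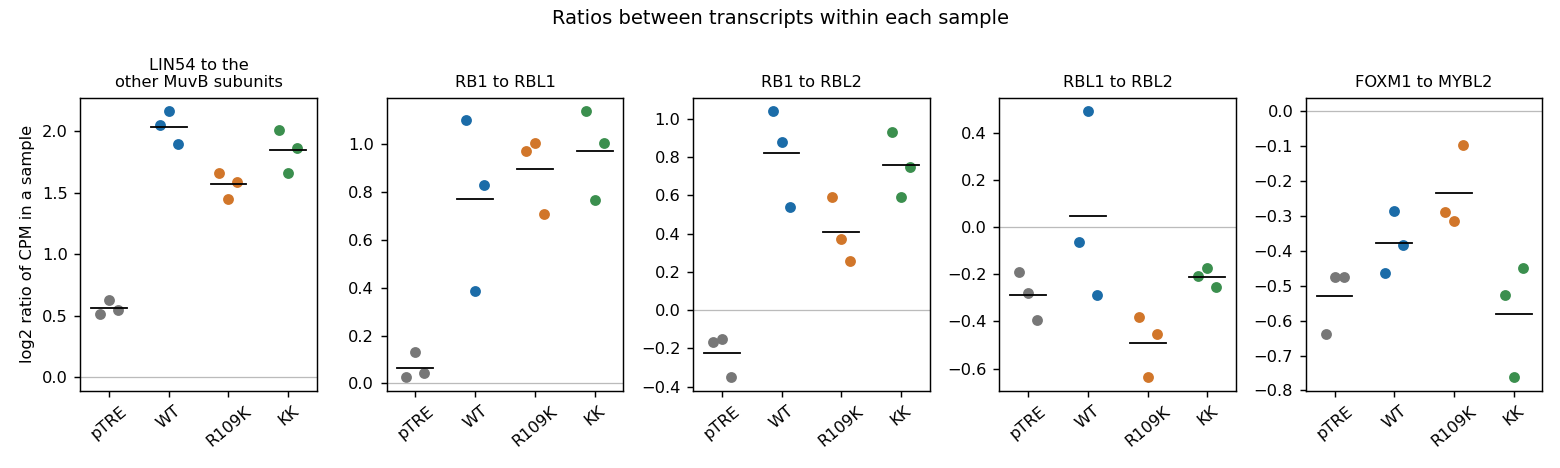
Log2 ratios of CPM between members in each of the 12 samples (points) with the mean of each line (black line); y axes differ between panels. LIN54 to the other MuvB subunits and RB1 to RBL1 or RBL2 are higher in all 9 E2F1 samples than in pTRE, and RBL1 to RBL2 overlaps between pTRE and every line.

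MYBL2 (chr20:42295659-42345135, plus strand), the MYB factor that turns MuvB into an activator, had 429.9, 445 and 450.5 CPM in pTRE. It had 516, 482 and 492 CPM in WT, 524, 536 and 497 in R109K, and 568, 663 and 503 in KK. The 9 E2F1 samples lay above the 3 pTRE samples, but the log2 differences of 0.17, 0.23 and 0.39 did not pass the edgeR test, with adjusted p of 0.257, 0.154 and 0.0164. KK replicate 2 was the highest of the 12. By DESeq2, the difference in KK had an adjusted p of 0.00143.

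FOXM1 (chr12:2966846-2986340, minus strand), the forkhead factor that joins MuvB and MYBL2 at late cell cycle genes, had 276, 320.1 and 324 CPM in pTRE. It had 374, 396 and 377 CPM in WT, 429, 431 and 465 in R109K, and 394, 390.5 and 368 in KK. The E2F1 samples again lay above pTRE, and the 3 R109K samples above all others. FOXM1 rose by 0.53 in R109K (SE 0.11, edgeR adjusted p = 0.00179), and the differences in WT and KK were both 0.32 (adjusted p = 0.0280 and 0.0268). The rise in R109K was lost without pTRE replicate 1 (edgeR adjusted p = 0.0114) or R109K replicate 3 (0.0125), while DESeq2 gave adjusted p of 0.00177 in WT and 0.000924 in KK. FOXM1 to MYBL2 within a sample lay between -0.64 and -0.47 on the log2 scale in pTRE, between -0.46 and -0.29 in WT, between -0.31 and -0.10 in R109K and between -0.76 and -0.45 in KK, so that only KK overlapped with pTRE.

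**Figure D4:**
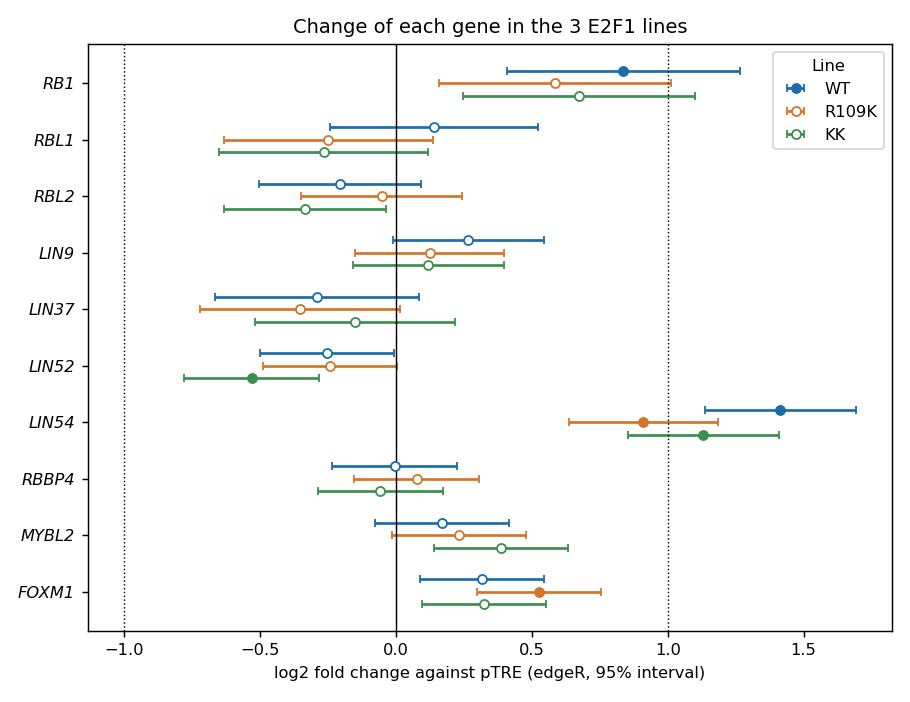
Log2 fold change of each of the 10 genes in WT, R109K and KK against pTRE with its 95% interval from edgeR; filled points have an adjusted p under 0.01 and dotted lines mark a 2-fold change. LIN54 is filled in the 3 lines, RB1 in WT, FOXM1 in R109K and LIN52 in KK, and the RBBP4 intervals span 0.

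The members were also compared directly between the E2F1 lines. The E2F1 transcript itself differed by -0.65 in R109K against WT (edgeR adjusted p = 0.0577). It differed by -0.46 in KK against WT (0.574) and by -0.18 in R109K against KK (0.773). The part of the E2F1 level in the differences below was not tested. In R109K against WT, KK against WT and R109K against KK, 0 of 10 members were called and 0 had an adjusted p under 0.01 by edgeR, while 0.343%, 0.00602% and 0.0902% of all genes were called and 0.710%, 0.0120% and 0.132% passed at any fold. At an unadjusted p under 0.05 the counts of members were 2, 3 and 1 of 10, against 22.3%, 8.51% and 12.4% of all genes. LIN54 came closest, at -0.50 in R109K against WT (SE 0.13, 95% interval -0.78 to -0.23, edgeR adjusted p = 0.0442), with the R109K samples below the WT samples. DESeq2 gave that difference an adjusted p of 0.00511, and over the 12 alternatives the adjusted p ran from 0.00511 to 0.190. LIN54 differed by -0.28 in KK against WT (adjusted p = 0.574) and by -0.22 in R109K against KK (adjusted p = 0.536), with overlapping samples in both. For RB1 the 95% interval of the difference was -0.68 to 0.17 in R109K against WT and -0.59 to 0.26 in KK against WT, and for FOXM1 it was -0.02 to 0.44 in R109K against WT. Samples of R109K and KK with the same replicate number deviated from their line means together, with r of 0.29 to 0.47 in the 3 pairs, so this comparison was also fitted on its 6 samples with the replicate number as a block, a choice added after seeing the data. In that fit 0 members were called and 1 had an adjusted p under 0.01, against 0.803% and 11.5% of 16069 genes, and against 0.0187% at either limit in the 6 samples with no block. The 1 member was RBL2, higher in R109K by 0.30 (edgeR adjusted p = 0.00989 with the block and 0.439 in the 12-sample model) and in 3 of 3 pairs. With the block, LIN54 differed by -0.22 (edgeR adjusted p = 0.0162), LIN52 by 0.29 (0.0154) and FOXM1 by 0.20 (0.0251), and 6 members had an unadjusted p under 0.05 against 33.8% of all genes, while with no block 1 did against 14.7%.

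Relative to transcript length, MYBL2, FOXM1 and RBBP4 were the most abundant members in all 4 lines. In CPM per kb of the canonical transcript, MYBL2 had 166 ± 3.98 in pTRE (SD, n = 3), FOXM1 86.4 ± 7.44 and RBBP4 24.2 ± 2.67. RBL2 followed at 13.2 ± 0.49, RB1 at 11.6 ± 1.24, LIN52 at 10.3 ± 0.96, LIN9 at 10.1 ± 1.09, RBL1 at 9.27 ± 0.99, LIN37 at 8.37 ± 0.84 and LIN54 at 8.23 ± 0.50. From RB1 down, neighbours in this order differed by less than the larger of their SDs. LIN54 went from last in pTRE to rank 4 in WT, at 21.95 ± 3.17 CPM per kb, and reached 15.5 ± 1.149 in R109K and 18.0 ± 2.12 in KK. With all annotated exons as the length, a choice added after seeing the data, the first 3 ranks were the same, LIN37 was last at 2.78 CPM per kb, and LIN54 had rank 8 in pTRE at 7.45.

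Several members share genomic space with a gene on the other strand, and whether the counting used strand is not given in the sources used here. RBL2 and AKTIP share 609 exon bases, RBBP4 and SYNC 2160, and FOXM1 and ITFG2 782, so their reads may be split or lost as ambiguous. AKTIP was at 15.5 to 21.7 CPM, SYNC at 1.18 to 3.27 CPM and ITFG2 at 15.7 to 30.2 CPM over the 12 samples, all below the member they overlap. LPAR6 lies inside RB1 with 0 shared exon bases. It had 0.23 to 0.62 CPM in pTRE and 1.63 to 14.1 in WT, the 14.1 in WT replicate 2, and stayed below RB1 in every sample.

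Partners of these complexes and relatives of the members were followed as a list of 10, here the partner list: E2F4, E2F5, TFDP1, TFDP2, DYRK1A, SIN3B, HDAC1, RBBP7, MYB and MYBL1. MYB is on it only as a relative of MYBL2. All 10 passed the filter. In WT 2 were called higher (DYRK1A and MYB), and in R109K and KK 1 each (MYB in both), and 1 was called lower in R109K (E2F5). Of all genes, 7.89%, 4.64% and 7.01% were called higher in WT, R109K and KK, and 3.93%, 2.56% and 3.90% lower. With no limit on the fold, 3 genes of the list rose and 1 fell in WT, 2 and 1 in R109K, and 4 and 1 in KK. The shares of all genes were 14.8% and 11.4% in WT, 10.0% and 7.23% in R109K, and 13.8% and 10.7% in KK. The median log2 fold changes of the list were 0.22, 0.26 and 0.19, against 0.0022, -0.00074 and -0.0091 over all genes. With 1 replicate left out, 3 to 5 genes of the list rose in WT (5 without WT replicate 2), 1 in R109K and 2 to 3 in KK (2 without pTRE replicate 1), while DESeq2 gave 5 in each line.

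MYB, the proto-oncogene relative of MYBL2, had the largest rise. It had 5.29, 4.45 and 3.38 CPM in pTRE, 46.0, 46.3 and 29.3 in WT, 21.9, 19.5 and 18.3 in R109K, and 39.2, 28.0 and 30.3 in KK. The lines did not overlap with pTRE, and its log2 fold changes of 3.21, 2.19 and 2.90 all passed the call. In R109K against WT it differed by -1.02 (SE 0.19, edgeR adjusted p = 0.0104), just short of the threshold. MYBL1, the third MYB gene, rose by 0.86 in WT and by 0.67 in KK, the latter not without pTRE replicate 1 or KK replicate 3, and its 0.47 in R109K did not pass (edgeR adjusted p = 0.0199).

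DYRK1A, the kinase that starts DREAM assembly by phosphorylating LIN52, had 21.0, 22.5 and 16.9 CPM in pTRE, 46.4, 47.9 and 35.1 in WT, 31.8, 31.3 and 29.9 in R109K, and 45.3, 29.9 and 34.9 in KK. It rose in all 3 lines, by 1.10, 0.62 and 0.87, and passed 2-fold in WT alone. Its edgeR adjusted p in R109K was 0.0098, and the rise there was lost whichever of the 6 samples was left out, with adjusted p up to 0.0553. Without pTRE replicate 3 it was no longer called in WT, where MYB alone of the partner list remained called. E2F5, which with E2F4 supplies the E2F of DREAM, had 6.11, 6.92 and 5.51 CPM in pTRE, 2.78, 4.26 and 4.12 in WT, 2.69, 2.87 and 3.23 in R109K, and 3.63, 3.31 and 3.32 in KK. It fell in all 3 lines, by 0.75, 1.08 and 0.85 on the log2 scale, and was called in R109K, though not without pTRE replicate 2. Its fall at any fold was lost in WT in the 6-sample fit and without pTRE replicate 1, pTRE replicate 2 or WT replicate 1, and in KK without pTRE replicate 2 or KK replicate 3. E2F4 differed by -0.24, -0.13 and -0.13 and did not pass. RBBP7, the paralog of RBBP4, rose in KK by 0.59 (edgeR adjusted p = 0.00375), which was lost without KK replicate 1, KK replicate 2 or any of the pTRE replicates.

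The cyclins and kinases that phosphorylate the pocket proteins formed a list of 8. In each of the 3 lines the same 3 genes were called higher, CCND3, CCNE1 and CCNE2, and 0 were called lower. Of all genes, 7.89%, 4.64% and 7.01% were called higher in WT, R109K and KK, and 3.93%, 2.56% and 3.90% lower. CCNE2, which activates CDK2, had 20.3, 18.8 and 18.8 CPM in pTRE and 113, 75.6 and 83.4 in WT, with log2 fold changes of 2.24, 2.06 and 2.16. CCND3 rose by 2.08, 1.75 and 2.20 and CCNE1 by 1.59, 1.54 and 1.70. CCND1, another D-type cyclin, fell by 0.48, 0.64 and 0.47. Its fall was lost in WT without pTRE replicate 2 or in the 6-sample fit, and in KK without pTRE replicate 2 or KK replicate 1. CCND2, the lowest of the list in WT at -0.50 (edgeR adjusted p = 0.0103), fell by 0.69 in KK. CDK2, CDK4 and CDK6 passed in no line.

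The targets of the complexes were followed as 30 genes of G2 and mitosis that MuvB with MYBL2 and FOXM1 activates, and 30 genes of G1/S that E2F activates and DREAM represses. Of the 30 G2/M genes, 8 rose in WT, 19 in R109K and 10 in KK, and 0 fell in any line. Of all genes, 14.8%, 10.0% and 13.8% rose and 11.4%, 7.23% and 10.7% fell. The G2/M medians were 0.27, 0.53 and 0.41 on the log2 scale. In WT, R109K and KK, 26, 30 and 28 of the 30 differences were positive, against 8333, 8300 and 8186 of 16625 over all genes. The counts of G2/M genes that rose turn on single samples. In WT the count was 3 when any pTRE replicate or WT replicate 1 was left out, 4 without WT replicate 3 and 11 without WT replicate 2, in R109K it ran from 8 to 14 and in KK from 4 to 9, with 0 falls throughout. In WT it was also 4 with no filter and in the 6-sample fit, and 9 with DESeq2. In R109K it was 16 with no filter, 22 in the 6-sample fit and 20 with DESeq2, and in KK it was 8, 14 and 16. The medians over the same omissions ran from 0.16 to 0.39, from 0.49 to 0.56 and from 0.38 to 0.46. NUSAP1, a microtubule-bundling protein of the spindle, was the 1 gene called in each line, at 146, 126 and 128 CPM in pTRE, 315, 293 and 291 in WT, 272, 272 and 259 in R109K, and 355, 323 and 321 in KK, with log2 fold changes of 1.17, 1.00 and 1.32. In R109K it lay at the 2-fold limit and was not called without pTRE replicate 2, pTRE replicate 3, R109K replicate 1 or R109K replicate 2. TTK, a spindle checkpoint kinase, was lowest in WT at -0.26 and did not pass (edgeR adjusted p = 0.137). Between R109K and WT, 0 of the 30 genes had an edgeR adjusted p under 0.01, against 0.710% of all genes. At an unadjusted p under 0.05 there were 13, against 22.3% of all genes. Of the 30 differences 28 were positive, against 8116 of 16625 over all genes, and the G2/M median was 0.24. The larger count in R109K was thus not shown to be a difference from WT for any single gene.

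The G1/S genes went both ways, as did all genes tested. Of the 30, in WT 5 rose and 5 fell, in R109K 6 and 2, and in KK 5 and 6, with medians of 0.01, 0.10 and 0.13. The shares of all genes that rose and fell were 14.8% and 11.4% in WT, 10.0% and 7.23% in R109K, and 13.8% and 10.7% in KK. Without WT replicate 2 the G1/S counts in WT were 6 and 5. Over all omissions of 1 replicate, 4 to 6 rose and 4 to 6 fell in WT, 4 to 6 and 1 to 2 in R109K, and 4 to 6 and 3 to 5 in KK, the 3 without pTRE replicate 3 or KK replicate 3, and the 1 in R109K without pTRE replicate 1 or any R109K replicate. DESeq2 gave 7 rises and 7 falls in R109K, and the 6-sample fit gave 3 falls in WT. RRM2, the small subunit of ribonucleotide reductase, had 434, 396 and 424 CPM in pTRE and the largest rise, by 2.37 in WT, 2.28 in R109K and 2.39 in KK. CCNE1 and CCNE2, which this list shares with the kinases, were the other 2 genes called higher in each line. TK1, the thymidine kinase of S phase, had the largest fall in WT. It had 379.9, 389.9 and 496 CPM in pTRE, 231, 170.4 and 259 in WT, 311, 367 and 323 in R109K, and 218, 296 and 223 in KK, and it fell by 0.94 in WT (edgeR adjusted p = 0.000489) and by 0.78 in KK (0.00202), where the fall was lost without pTRE replicate 3, KK replicate 1 or KK replicate 3. MCM5, a subunit of the replicative helicase, was the 1 gene of the list called lower, by 1.02 in KK. It lay at the 2-fold limit and was not called without pTRE replicate 3, KK replicate 1 or KK replicate 3, though it fell in all 12 alternatives. It was chosen after its values were seen.

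**Figure D5:**
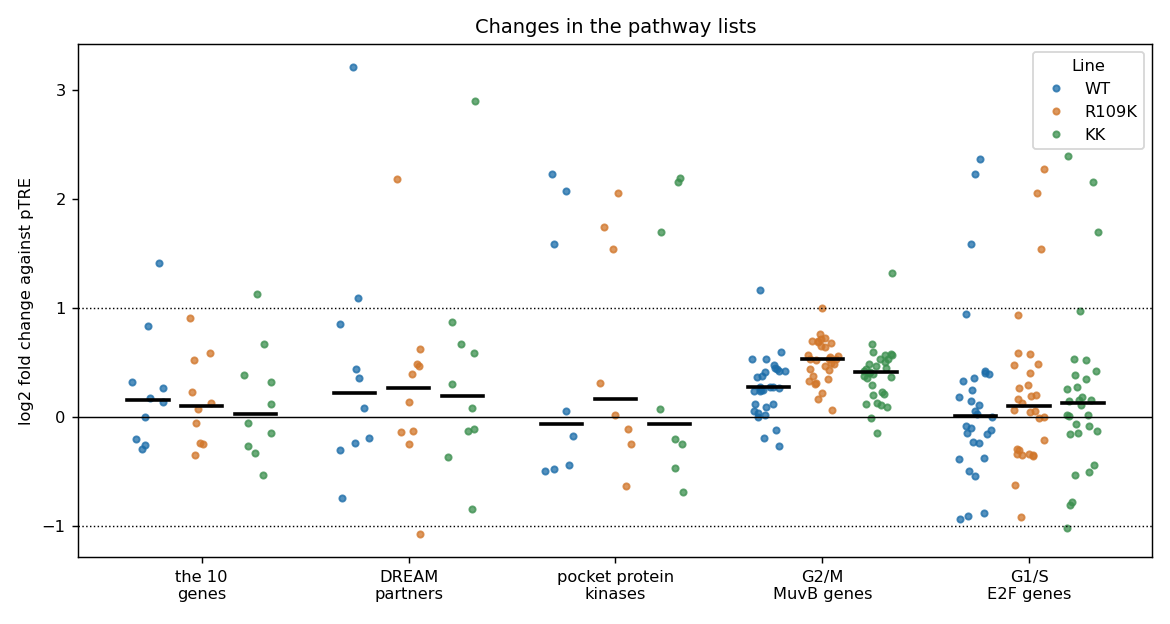
Log2 fold change against pTRE of every tested gene in the 5 lists (points) in WT, R109K and KK, with the median of each list (black line) and a 2-fold change (dotted lines). The G2/M genes sit mostly above 0 with medians of 0.27, 0.53 and 0.41, and the G1/S genes spread to both sides with medians of 0.01, 0.10 and 0.13.

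For each member, the gene outside the list with the closest profile over the 12 samples was found by the root mean square difference of log2 CPM after each gene was centred on its own mean. LIN54 was closest to TACC1, a centrosomal coiled-coil protein (0.08), and RB1 to ZFP91 (0.10). The others were TTC21B for RBL1 (0.07), KLF3 for RBL2 (0.07), OSBPL11 for LIN9 (0.05), ASL for LIN37 (0.09), C16orf72 for LIN52 (0.06), AEBP2 for RBBP4 (0.05), PAWR for MYBL2 (0.06) and PPP2R5D for FOXM1 (0.08). The same 10 genes were found with RLE normalization. LIN54 varied by 0.54 around its own mean and RBBP4 by 0.09, so that the likeness of a gene as flat as RBBP4 says little.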

How the data were processed

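The samples were 12 poly(A) RNA-seq libraries made with a directional kit, 3 biological replicates of each of 4 U2OS Tet-On lines. Reads were trimmed by the authors with Trim Galore 0.4.3 and aligned to hg19 with STAR 2.5.1, and the authors analysed them with DESeq2 1.16.1. The authors deposited whole-number counts of reads per gene symbol, without normalization, which the study's methods attribute to the aligner, and the annotation version and strand setting are not given in the sources used here. Of the 25369 symbols, 21538 were matched to GENCODE on GRCh37. The 5 summary lines of each file, in which 23.6 to 58.7% of reads were assigned to no feature and 0.866 to 2.16% were ambiguous, were left out of library sizes and tests.

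The counts were fitted with edgeR 4.0.16 in R 4.3.3, with TMM factors, filterByExpr by line and 1 quasi-likelihood model of all 12 samples (common dispersion 0.0239). Adjustment was by Benjamini-Hochberg over 16625 genes. Replicates differed by more than sampling noise in every line. Log2 CPM used a prior count of 2. The script was tested on simulated data. Positions, exons and promoter sequences came from GENCODE and GRCh37 through Python 3.11.15, and the start base counts as position 1, with no position 0. The promoter of 1 of the 10 genes is not reported here. Alternatives were DESeq2 1.42.0, RLE factors, no filter, at least 10 counts in every sample, only the 6 samples compared, a replicate block, other thresholds (an adjusted p of 0.05, no minimum fold, and glmTreat against 2-fold), and each replicate left out in turn. The members and lists were chosen with earlier results of these data known. Named genes were the members, E2F1, the genes with the largest rise and fall in WT in each list, every gene of the partner list that was called, and the nearest gene to each member. Genes outside this rule were named from their list after their values were seen. By the rule that every same-numbered pair correlates above 0.1, replicate numbers paired R109K with KK and no other lines. No source gives what the numbers share.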

Additional observations from a re-analysis of the deposited data

How the results depend on the processing

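The direction of LIN54, RB1, MYBL2 and FOXM1 against pTRE was the same under DESeq2, RLE factors, both other filters and the 6-sample fits. In each of these settings LIN54 was called in WT and KK, while RB1, MYBL2 and FOXM1 were called in no line, their changes being under 2-fold. At an adjusted p under 0.01 alone the settings differed. FOXM1 in WT and KK and MYBL2 in KK passed with DESeq2 only. RB1 in KK passed with DESeq2, with no filter and in the 6-sample fit, and RB1 in R109K in the 6-sample fit. With no minimum fold change, 2 members were called in each of WT, R109K and KK, and with glmTreat 0 were called in WT and in KK, since it asks whether a change exceeds 2-fold. Members near 0 changed sign, and the cause was not tested. RBBP4 in WT against pTRE was 0.0020 with RLE factors, 0.010 with at least 10 counts in every sample and 0.014 in the 6-sample fit. LIN52 in R109K against WT was -0.00034 with at least 10 counts, and LIN9 in R109K against KK was -0.0014 with DESeq2 and -0.0021 with RLE factors. Leaving out each replicate in turn moved the log2 difference from -0.093 to 0.059 for RBBP4 in WT, between -0.0092 and 0.14 in R109K and between -0.14 and 0.0091 in KK, and from -0.061 to 0.23 for RBL1 in WT and from -0.11 to 0.0056 for RBL2 in R109K, each against pTRE. In R109K against WT it ran from -0.096 to 0.011 for LIN37 and from -0.042 to 0.075 for LIN52. In KK against WT it ran from -0.39 to 0.061 for RB1, -0.26 to 0.036 for RBL2, -0.082 to 0.27 for LIN37 and -0.0018 to 0.045 for FOXM1. In R109K against KK it ran from -0.31 to 0.14 for RB1, -0.13 to 0.15 for RBL1, -0.062 to 0.041 for LIN9 and -0.33 to 0.023 for LIN37. Over the same omissions, 1 to 2 genes of the partner list were called in WT and in R109K, 3 to 5 G1/S genes in WT (5 without WT replicate 3) and 0 to 1 G2/M genes in R109K. Depth was lowest in WT replicate 2.

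Replicate numbers are shared between the lines. The correlation of same-numbered deviations was 0.29 to 0.47 between R109K and KK, where different numbers gave -0.34 to 0.037, and -0.29 to 0.24 between the other lines. Different-numbered pairs over all lines ran from -0.38 to 0.31, the 0.31 between WT replicate 2 and KK replicate 3. Of the 36 different-numbered pairs 9 lay over 0.1, against 5 of the 18 same-numbered pairs. The 12-sample model had no block. In a model with a replicate block, the log2 fold change of LIN54 was 1.41 in WT, 0.91 in R109K and 1.13 in KK, members called were 1, 0 and 1, and RB1 in KK was 0.64 with an edgeR adjusted p of 0.00895, against 0.0159 without the block. Over all genes, the calls went from 1964 to 1895 in WT, from 1196 to 1169 in R109K and from 1814 to 1777 in KK. In R109K against KK they went from 15 to 14 in the 12-sample model and from 3 to 129 in the 6 samples, and from 3 to 1853 with no limit on the fold.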

Other observations

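The replicates of a line were not alike in these genes. In pTRE, replicate 3 had the lowest CPM of 7 of the 10 members and replicate 1 the highest of 7. In KK, replicate 2 had the lowest CPM of 7 members, RB1, RBL1 and RBL2 among them, and the highest of MYBL2 and LIN37, while replicate 1 was highest in 8. RB1, RBL1 and RBL2 were all lowest in KK replicate 2, and in that sample RB1 to RBL2 was 0.59 on the log2 scale, still above the pTRE samples.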
